A study of Mus musculus with 3 samples.

Results

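Nonclassical monocytes of mouse liver were described in single-cell transcriptomes of sorted liver non-parenchymal cells. A barcode was kept if 200 or more genes were detected in it and no more than 20% of its UMIs (unique molecular identifiers, 1 per captured transcript) were mitochondrial. Members were chosen by measured UMI counts, as the kept barcodes with at least 4 UMIs in the sum of Ace, Cd300e, Ear2 and Treml4, at most 1 UMI of Siglech, at most 2 of the Kupffer cell genes Clec4f, Cd5l and Marco, and at most 2 of the sinusoidal endothelial genes Stab2, Clec4g and Gpr182. The gate took 134 barcodes of the 3230 kept and of 4638 in all, which is 4.15% of those kept (exact binomial 95% interval 3.49 to 4.89%).

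The mice carried the LSL-Tomato (Ai14) Cre reporter in every group. They received 20mix-LNP or 20a-LNP, lipid nanoparticles loaded with 0.3 mg/kg of Cre mRNA, or PBS, and cells were taken 3 h after injection, with 1 library per group, and the sources used here do not give the mice's age, sex or number. The series addresses how nanoparticle stereochemistry bears on endocytosis and delivery in the liver. The libraries are merged in 1 matrix in which a suffix of 1, 2 or 3 marks each barcode's library, and neither the labels nor the file headers say which treatment a suffix stands for. No treatment was therefore compared, and the values of each library are given under its suffix as a description without replicates.

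Nonclassical monocytes, called Ly6C-low in the mouse, are blood monocytes that stay inside vessels and crawl along the endothelium. They derive from classical Ly6C-high monocytes, and the nuclear receptor Nr4a1 and the factor C/EBPβ are needed for them in mice. They are known for clearing particles and immune complexes in the vessel, for the Fc receptor Fcgr4 and for high levels of the chemokine receptor Cx3cr1 and the integrin chain Itgal. Their counterparts in the liver sinusoid are Kupffer cells, the resident macrophages, and conventional dendritic cells type 2, which present antigen on MHC class II.

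The members held 1013304 UMIs, and the median barcode had 6305 UMIs and 2184 genes, with a median mitochondrial share of 3.61%. Suffixes 1, 2 and 3 contributed 36, 57 and 41 members, which are 4.73%, 5.09% and 3.04% of the kept barcodes of each library. The sort can set these shares, and the labels do not name the populations it collected. Levels are UMIs of a gene per 1000000 UMIs of the group (CPM), with exact Poisson 95% intervals, and ratios of CPM have exact intervals conditional on the total. All intervals cover counting error only, and no test was run, since barcodes of a library are not replicates and the members were chosen by the same counts. A gene was called higher or lower when its ratio was at least 2 either way with an interval beyond 1, at 50 CPM or more in the higher group and in the same direction in 3 of 3 libraries.

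The gate genes set the membership, so their levels are a description. Ear2, a ribonuclease of the eosinophil-associated family, stood at 829.9, 791 and 616 CPM under suffixes 1, 2 and 3. It has near-identical family members, between which reads may have been split. Ace, the angiotensin-converting enzyme, stood at 842, 641 and 612 CPM, Cd300e, an activating immunoreceptor, at 544, 474 and 449 CPM, and Treml4, a receptor of the TREM family, at 501, 387 and 326 CPM in the same libraries. These genes were high in each of the 3 libraries, and 87 of 134 members had a UMI of all 4, while 11 had only 1 of them. The median member had 15 gate UMIs and the highest 54.

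Fcgr4, the activating receptor for IgG on nonclassical monocytes and the fifth marker of the label, was not used by the gate, and its level was read as a check of the label (chr1:171018920-171029761, plus strand on GRCm38). It stood at 626, 634 and 626 CPM under suffixes 1, 2 and 3, so the libraries differed by less than their counting intervals. Over the groups it had 629.6 CPM in members, 394 CPM in the Kupffer gate, 27.6 CPM in the dendritic type 2 gate, 64.6 CPM in the classical monocyte gate and 32.9 CPM in all other kept barcodes. A UMI was found in 112 of 134 members (83.6%), against 3 of 560 lymphoid barcodes (0.536%), taken as those with 3 or more UMIs of Cd3e, Cd3d, Ncr1 and Klrb1c, which should lack the gene and whose median depth was 6577 UMIs. After thinning every barcode to 1000 UMIs, which left out 1 member, the share was 51.9% in members and 0.179% in lymphoid barcodes. In the Kupffer gate, whose cells also carry the gene, the share was 56.6%, and 32.1% after thinning, which left out 20 of its 129 barcodes. The Kupffer gate admitted at most 3 UMIs of the 4 gate genes. A further 52 barcodes with more than 2 UMIs of Clec4f, Cd5l and Marco had 4 or more gate UMIs. In them Fcgr4 stood at 609 CPM, with a UMI in 44 of 52. Fcgr4 thus set the members apart from lymphoid and dendritic barcodes, and less or not at all from barcodes with Kupffer genes.

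**Figure D1:**
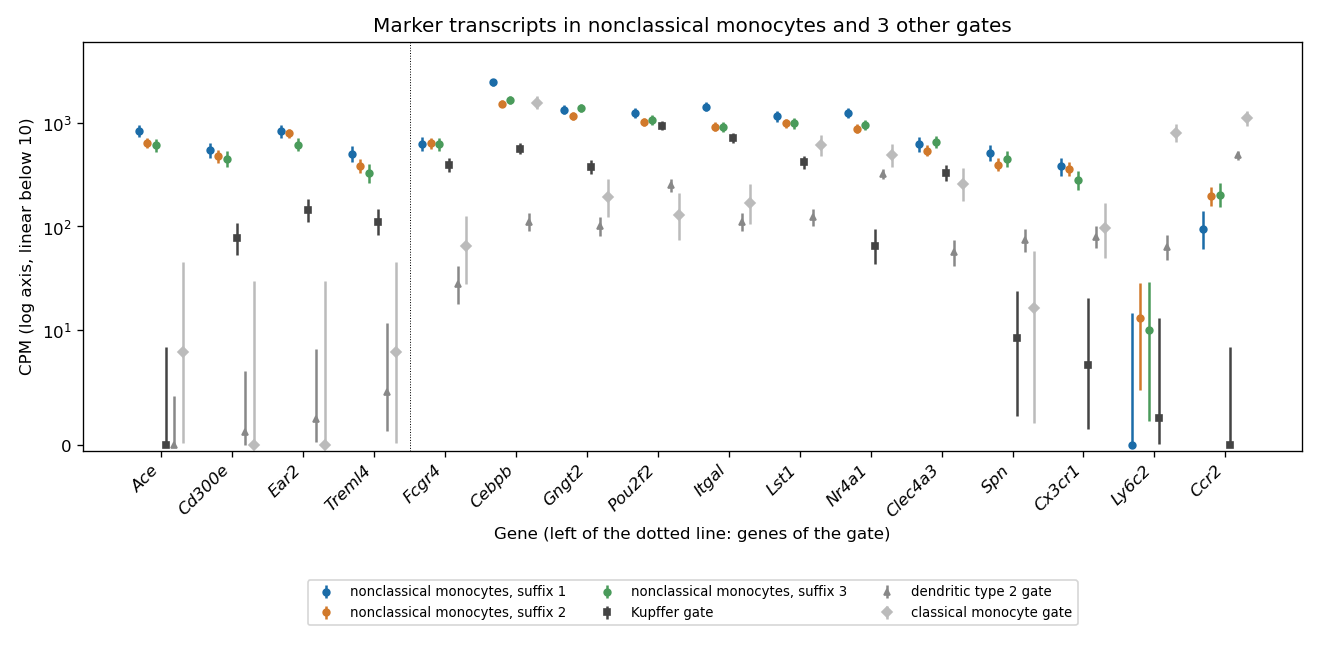
Level of 16 genes (CPM on a log axis that is linear below 10) in nonclassical monocytes under suffixes 1, 2 and 3 (circles) and in the Kupffer, dendritic type 2 and classical monocyte gates (squares, triangles, diamonds), with exact Poisson 95% intervals. The genes of the gate lie left of the dotted line, and Fcgr4 sits at 629.6 CPM in members against 27.6 CPM in the dendritic type 2 gate. Ly6c2 and Ccr2, right of the line, were used to choose the classical monocyte gate.

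The values just inside and just outside the gate differed less than those far from it. Fcgr4 stood at 56.8 CPM in the 14 members with 4 or 5 gate UMIs and at 63.3 CPM in the 54 barcodes with 2 or 3 that met the other limits. Members with 8 or more gate UMIs, 108 in number, had 805 CPM. At 4 or 5 gate UMIs, 7 of the 14 members also had 20 or more UMIs of MHC class II genes, and so did 37 of the 54 barcodes with 2 or 3. Both values thus pool barcodes with and without these UMIs. Markers of several other cells were at or near 0 in the members, while the Kupffer and dendritic type 1 lists were not. Of the classical monocyte markers, Ly6c2 had 8.88, Chil3 4.93, F13a1 2.96 and Vcan 0.987 CPM, and Ccr2 was higher, at 173 CPM. The classical monocyte gate asked for at least 1 UMI of Ly6c2 and at least 4 in the sum of Chil3, F13a1, Vcan and Ccr2. It admitted at most 1 UMI in the sum of Ace, Cd300e, Ear2 and Treml4. Its 13 barcodes had 799.7, 1042, 784, 137 and 1107 CPM of these 5 genes, which were thus part of how the barcodes were chosen. With 13 barcodes this gate was too small to compare, and its values stand side by side with the members' values only. The neutrophil genes S100a8 and S100a9 stood at 1.97 and 0.987 CPM in members, the natural killer gene Gzma at 3.95 CPM and the T cell gene Cd3e at 0. Sinusoidal endothelial markers summed to 28.6 CPM in members and 4887 CPM in all other kept barcodes, and no member had 3 or more UMIs in the sum of the lymphoid and neutrophil genes Cd3e, Cd3d, Cd79a, Ms4a1, Ncr1, Klrb1c, Retnlg and Cxcr2. Sums over the other marker lists were 827 CPM for Kupffer cells, 602 CPM for dendritic cells type 1, 134 CPM for dendritic cells type 2, 236 CPM for plasmacytoid dendritic cells, 112 CPM for B cells, 10.9 CPM for T cells, 12.8 CPM for NK cells, 188 CPM for neutrophils, 29.6 CPM for platelets, 263 CPM for hepatocytes, 28.6 CPM for erythroid cells, 1.97 CPM for stellate cells and 0.987 CPM for basophils and mast cells. The plasmacytoid sum came mostly from Bst2 (124 CPM) and Runx2 (104 CPM), with Siglech at 3.95 CPM. The B cell sum came mostly from Ighm (103 CPM) and the neutrophil sum from G0s2 (119 CPM).

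The members were not uniform. A set of 24 barcodes (3, 13 and 8 under suffixes 1, 2 and 3) had 20 or more UMIs of the MHC class II genes H2-Aa, H2-Ab1 and H2-Eb1, a limit chosen after seeing the values. They ranged from 28 to 1270 such UMIs with a median of 343, and the other 110 members had at most 11, with 99 of them between 0 and 2. The 24 barcodes had a median of 13316 UMIs against 6021 in the 110, and they held 33.7% of all member UMIs. They carried fewer gate UMIs, with a median of 7 against 17. In 5 of the 24, and in 0 of the 110, the whole gate sum came from Ear2.

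Kupffer and dendritic type 2 markers were higher in these 24 barcodes than in the other 110, and so was Ccr2 of the classical monocyte markers. C1qa, a subunit of the complement component C1q made by macrophages, had 794 CPM in the MHC class II-high members against 1.49 CPM in the MHC class II-low members. Xcr1 and Clec9a, receptors of conventional dendritic cells type 1, had 135 and 158 CPM against 0 and 0. The whole list of 6 type 1 markers, which includes the more widely expressed Irf8 and Naaa, summed to 1269 CPM in the 24 against 263 CPM in the 110. Flt3, the growth factor receptor of dendritic cells, had 82.1 against 1.49 CPM, and Ccr2, the receptor by which classical monocytes leave bone marrow, 460.2 against 26.8 CPM. Of the 24, 4 had 3 or more UMIs of Xcr1 and Clec9a, 9 had 10 or more UMIs of the C1q genes and 3 had 3 or more UMIs of Cd209a, Clec10a and Mgl2, while 10 met none of these limits. None of the 110 met any of them. The 10 Kupffer markers summed to 2424 CPM in the 24 barcodes against 16.4 CPM in the 110, the 8 dendritic type 2 markers to 381 against 8.93 CPM and the 6 classical monocyte markers to 495 against 41.7 CPM. Ccr2 made up most of the classical sum in both sets, and was also found in 56 of the 62 barcodes of the dendritic type 2 gate. Ly6c2 was found in 2 of the 24 and 3 of the 110. Neutrophil markers went the other way, with 23.4 against 272 CPM, of which G0s2, a lipolysis inhibitor, made up 180 CPM in the 110. Plasmacytoid markers summed to 229 against 239.5 CPM.

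Genes of nonclassical monocytes went the other way. Fcgr4 stood at 152 CPM in the MHC class II-high members against 872 CPM in the MHC class II-low members, Nr4a1 at 319.5 against 1345 CPM and Spn, the sialophorin CD43, at 76.2 against 628 CPM. The 25 genes of the nonclassical identity list, none of them in the gate, summed to 4145 against 18442 CPM. After thinning to 1000 UMIs, Fcgr4 was found in 33.3% of the 24 and 56.0% of the 110, and Spn in 4.17% and 47.7%. Scrublet, a doublet caller run per library, called none of the 134 members and 23 of the 3230 kept barcodes. Summed over each set, the marker values of the 110 barcodes are those of the label, while those of the 24 go against it in part. The 24 are therefore named here only by their MHC class II UMIs. Single barcodes depart from this split. A barcode of the 110 with 11857 UMIs had 1265 CPM of the identity list and no UMI of Fcgr4. A barcode of the 24 with 28 MHC class II UMIs had 17381 CPM of the list and 6 UMIs of Fcgr4. Values are given below for all 134 members and, for some genes and lists, without the 24. Where only the former are given, the latter can differ.

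**Figure D2:**
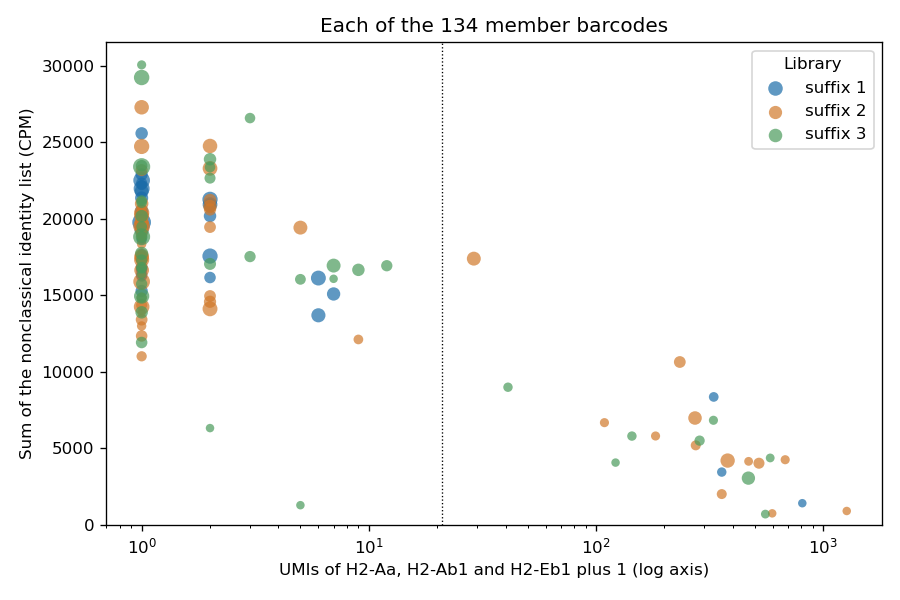
Each of the 134 member barcodes by its UMIs of 3 MHC class II genes plus 1 (log axis) and by the sum of the nonclassical identity list (CPM), coloured by library suffix and sized by gate UMIs. The 24 barcodes right of the dotted line (20 UMIs) have 28 to 1270 MHC class II UMIs and together 4145 CPM of the list, against 18442 CPM in the 110 on the left.

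**Figure D3:**
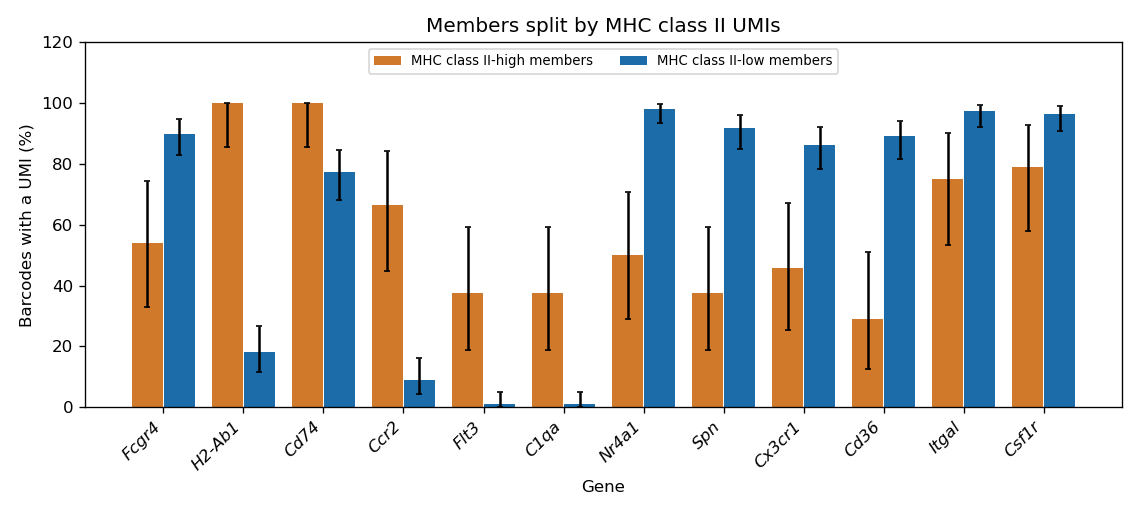
Share of barcodes with a UMI of 12 genes in the 24 MHC class II-high and the 110 MHC class II-low members, with exact binomial 95% intervals as error bars. Ccr2 was found in 66.7% and 9.09% of them, and Spn in 37.5% and 91.8%.

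The nonclassical identity list summed to 15932, 12740 and 13023 CPM under suffixes 1, 2 and 3. In the MHC class II-low members it summed to 19297, 18321 and 17740 CPM, so the libraries lay closer together. The MHC class II-high barcodes were 3 of 36, 13 of 57 and 8 of 41 members. Cebpb, the factor C/EBPβ that these cells need in mice, led the list at 2462, 1533 and 1671 CPM. Gngt2, a G protein gamma subunit, stood at 1347, 1169.7 and 1394 CPM, Pou2f2, the transcription factor Oct-2, at 1245, 1025 and 1058 CPM, and Itgal, the alpha chain of the integrin LFA-1, at 1437, 923 and 915 CPM. Cebpb and Itgal were highest under suffix 1, which had the fewest MHC class II-high members, and the order of the other libraries differed from gene to gene. The part of those members in this order was not tested. Nr4a1, the nuclear receptor on which the cells depend in mice, stood at 1260.5, 881 and 958 CPM and was found in 120 of 134 members. Per barcode its level ran from 34.7 CPM at the 10th percentile over a median of 799 to 2480.3 CPM at the 90th. Cx3cr1, the fractalkine receptor, had 340.5 CPM and a UMI in 106 members, and Adgre4, an adhesion receptor of the EMR family, 377 CPM and 115 members. In lymphoid barcodes Adgre4 was found in 0 of 560, which allows a share with a UMI of up to 0.536% and says nothing of expression below detection.

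The sequences upstream of Nr4a1 and Fcgr4 are shown, the first a regulator on which the cells depend in mice and the second a marker of the label outside the gate. They are the 250 bases before the RefSeq start on GRCm38.p6, both on the plus strand, at chr15:101266596-101266845 for Nr4a1 and chr1:171018676-171018925 for Fcgr4. The Nr4a1 gene model of GENCODE spans chr15:101254269-101274795, plus strand and so begins further upstream. Capitals mark matches to TGACG, the half-site of the cyclic AMP response element, in Nr4a1 and to GAGGAA, a purine-rich PU.1 core, in Fcgr4, each read on either strand.
Nr4a1: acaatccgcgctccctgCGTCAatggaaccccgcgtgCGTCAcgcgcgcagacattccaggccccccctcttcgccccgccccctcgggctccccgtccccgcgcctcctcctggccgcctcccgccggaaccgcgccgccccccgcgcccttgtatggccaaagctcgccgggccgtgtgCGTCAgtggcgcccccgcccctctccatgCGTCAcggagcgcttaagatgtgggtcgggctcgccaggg
Fcgr4: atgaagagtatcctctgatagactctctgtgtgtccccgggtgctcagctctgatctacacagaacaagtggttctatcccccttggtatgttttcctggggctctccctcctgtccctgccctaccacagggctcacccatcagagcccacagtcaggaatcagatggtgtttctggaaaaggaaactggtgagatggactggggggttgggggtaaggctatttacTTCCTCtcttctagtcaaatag
The window of Nr4a1 held 4 matches to TGACG, all on the minus strand and so printed as CGTCA, and none to GAGGAA. That of Fcgr4 held 1 match to GAGGAA, on the minus strand, and none to TGACG. Of 32851 RefSeq windows of the same length, 17.8% held TGACG and 23.3% held GAGGAA on either strand. A match describes letters in the window and not a bound site.

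Against the Kupffer gate, 129 barcodes with a median of 2679 UMIs and a median mitochondrial share of 10.5%, nonclassical monocytes had a higher sum of the adhesion and migration list (ratio 2.24) and lower sums of the lysosome (ratio 0.405) and complement lists (ratio 0.120). Of 3458 genes tested, 653 (18.9%) were higher and 562 (16.3%) lower, and the median log2 ratio was 0.10. Napsa, an aspartic protease, had 919.8 against 2.32 CPM, a ratio of 396 (95% interval 71.0 to 15676). Cd9, a tetraspanin, had 551 against 4.64 CPM, a ratio of 119 (95% interval 32.7 to 982). Cxcr4, the receptor for Cxcl12 that retains cells in bone marrow, had 414 against 4.64 CPM, a ratio of 89.1 (95% interval 24.5 to 738). All 3 stood higher still in the MHC class II-low members, of whose 3544 tested genes 802 (22.6%) were higher and 610 (17.2%) lower.

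Genes with no UMI in the Kupffer gate have only a lower bound, computed against 3 counts over the gate. Pglyrp1, which binds bacterial peptidoglycan, had 370.1 CPM in members and was at least 53.2-fold higher. Gpr141, an orphan receptor, had 323 CPM and was at least 46.4-fold higher, and Krt80, a keratin, 280.3 CPM and at least 40.3-fold. Cbfa2t3, a transcriptional corepressor, and Agpat4, an acyltransferase of phospholipid synthesis, had 242 and 206 CPM. Cytip, which regulates adhesion through LFA-1, had 556 against 9.28 CPM, and the muscle enolase Eno3 332 against 4.64 CPM. Ifitm1 and Ccr2 were also among the 12 leading genes, at 196 and 173 CPM, but lay mainly in the 24 barcodes. In the MHC class II-low members they stood at 17.9 and 26.8 CPM.

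The genes with the smallest ratios to the Kupffer gate were those of the resident macrophage. Slc40a1, the iron exporter ferroportin, had 5.92 against 2044 CPM, and Vcam1, an adhesion molecule, 17.8 against 2021 CPM. Vsig4, a receptor for complement C3b, had 1.97 against 1965 CPM and Fcna, a ficolin, 0.987 against 1429 CPM. Cxcl13, Folr2, Cd163, C6, Timd4 and Ccl24 had no UMI in members, against 1742, 805, 624, 608, 483 and 271 CPM in the Kupffer gate. Il18bp, which binds interleukin 18, had 0.987 against 548 CPM and Apoc1, an apolipoprotein, 13.8 against 1960.4 CPM. The gate admitted at most 2 UMIs of Clec4f, Cd5l and Marco, so absence of Kupffer genes as a whole is in part what the gate asked for.

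Against the dendritic type 2 gate, 62 barcodes with a median of 13964 UMIs, nonclassical monocytes had higher sums of the lipoprotein receptor (ratio 10.4), LXR target (ratio 8.48) and Fc signalling lists (ratio 1.94) and a lower sum of the MHC class II list (ratio 0.362, and 0.0275 without the 24). Of 3202 genes tested, 526 (16.4%) were higher and 222 (6.93%) lower, with a median log2 ratio of 0.12. Fabp4, a fatty acid carrier, had 576 against 1.15 CPM, a ratio of 501 (95% interval 89.5 to 19809). Apoe, the lipoprotein ligand and the leading gene of both lipid lists, had 3014 against 26.5 CPM, a ratio of 114 (95% interval 75.7 to 179.8). In members it made up most of the 4397.5 CPM of the lipoprotein receptor list and of the 3592 CPM of the LXR list. Both list ratios thus rest in large part on this 1 gene. The median log2 ratio of tested genes was 1.50 in the lipoprotein receptor list and 1.28 in the LXR list, beside 0.12 over all genes. Cd36, a scavenger receptor for oxidised lipid, had 454 against 1.15 CPM, a ratio of 394 (95% interval 70.4 to 15610). S1pr5, a receptor for sphingosine 1-phosphate, had 146 CPM in members and none in the dendritic gate, and was at least 42.3-fold higher. The other leading genes were Mgst1, a glutathione transferase (347 against 1.15 CPM), Hp, haptoglobin (192 against 1.15 CPM), Pla2g7, a phospholipase that degrades platelet-activating factor (325 against 4.60 CPM), Slc11a1, a metal transporter of phagosomes (291 against 4.60 CPM), Slc12a2, a chloride cotransporter (239 against 3.45 CPM), and Klra2, a lectin-like receptor (204 against 3.45 CPM). Eno3 (332 against 5.76 CPM) and Lilra5, an immunoglobulin-like receptor (97.7 CPM against 0), complete the 12.

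Genes with the smallest ratios to the dendritic gate included Cd209d, Tnfsf9, Cxcl9, Klrd1, Fcor, Kctd14, Emp1, Klra17, Siglecg, Kmo and S100a10. Cd209d, a lectin of the DC-SIGN family, had no UMI in members and 108 CPM in the dendritic gate. Tnfsf9, a costimulatory ligand, had 9.87 against 334 CPM, and Cxcl9, a chemokine induced by interferon gamma, 15.8 against 312 CPM. S100a10, a partner of annexin A2, had 69.1 against 539.9 CPM. In the MHC class II-low members 729 of 3334 genes (21.9%) were higher and 365 (10.9%) lower than in the dendritic gate.

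Against all other 3096 kept barcodes, which hold the other cell types of the sort, 441 of 3824 genes (11.5%) were higher and 721 (18.9%) lower, with a median log2 ratio of -0.13. Scaling by the trimmed mean of M-values (TMM) moved every log2 ratio of this comparison by 0.23, which turned the counts to 610 higher and 579 lower. In the MHC class II-low members 577 of 3892 genes (14.8%) were higher and 793 (20.4%) lower. Dnah12, an axonemal dynein, had 61.2 against 0.253 CPM, a ratio of 242 (95% interval 98.4 to 772), and was found in 35 of 134 members. S1pr5 had 146 against 3.69 CPM, a ratio of 39.6 (95% interval 29.7 to 53.1), Eno3 332 against 9.60 CPM, a ratio of 34.5 (95% interval 28.8 to 41.5), and Krt80 280.3 against 8.39 CPM, a ratio of 33.4 (95% interval 27.5 to 40.7). Pparg, a nuclear receptor of lipid metabolism, had 130.3 against 3.84 CPM, a ratio of 33.9 (95% interval 25.4 to 45.6). The other leading genes were Serpinb2 (50.3 against 0.960 CPM), an inhibitor of plasminogen activators, Scnn1a (82.9 against 1.92 CPM), a sodium channel subunit, Smpdl3b (158 against 4.65 CPM), a membrane lipid hydrolase, and Nupr1 (256 against 9.20 CPM), a stress-response regulator. F10, clotting factor X, had 97.7 against 3.24 CPM, Slc12a2 239 against 9.30 CPM and Trem3, a TREM family receptor, 146 against 6.17 CPM. The genes with the smallest ratios were those of other lineages, such as Gzma (3.95 against 1466 CPM), S100a9 (0.987 against 594 CPM), Kdr (2.96 against 758 CPM) and Ly6d (0 against 474 CPM). Plpp3, Xcl1, Ptprb, Tinagl1, Cox6a2, Gzmb and F8 followed, and Hbb-bs (5.92 against 1268 CPM) was not called since 1 library went the other way.

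**Figure D4:**
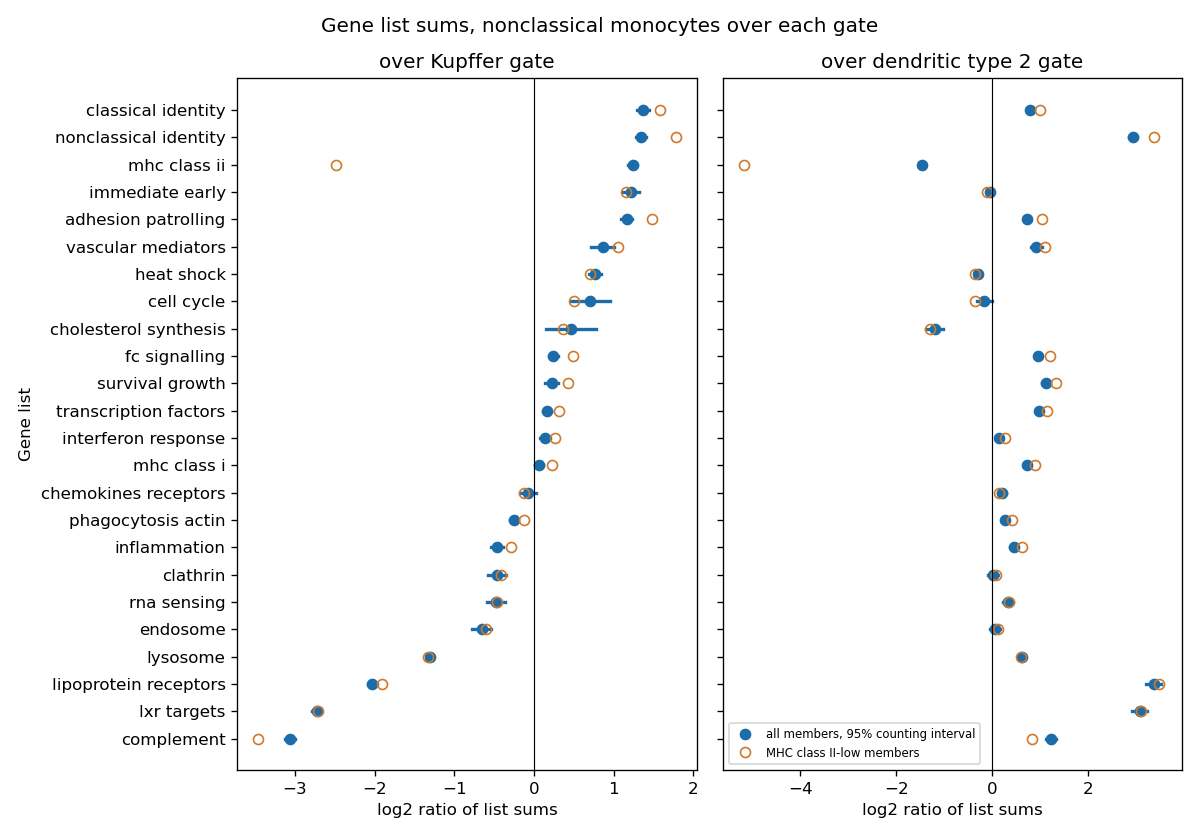
Ratio of list sums (log2) of nonclassical monocytes over the Kupffer gate (left) and over the dendritic type 2 gate (right) for 24 gene lists, with exact 95% counting intervals as lines; filled circles are all 134 members and open circles the 110 MHC class II-low members. The lysosome list sits at a ratio of 0.405 over the Kupffer gate, and the MHC class II list falls below 1 there when the 24 members are left out.

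For the surface and its adhesion, the sum of the nonclassical identity list had a ratio of 2.54 (95% interval 2.43 to 2.65) to the Kupffer gate and of 7.69 (95% interval 7.30 to 8.11) to the dendritic gate. Against the Kupffer gate 16 of 24 tested genes were higher, 0 lower and 8 not called, with a median log2 ratio of 1.76. Over all genes tested there, 18.9% were higher and 16.3% lower. In the MHC class II-low members 21 of 24 were higher and 0 lower, beside 22.6% and 17.2% over all genes. Against the dendritic gate 23 of 24 tested genes were higher, 0 lower and 1 not called, beside 16.4% higher and 6.93% lower over all genes. The adhesion and migration list summed to 11063 CPM in members, 4934 CPM in the Kupffer gate and 6678 CPM in the dendritic gate. Coro1a, an actin regulator of leukocytes, had 1622 against 107 CPM in the Kupffer gate, Itgb2, the beta chain shared by LFA-1 and Mac-1, 709 against 125 CPM, and Itga4, which binds Vcam1, 688 against 60.3 CPM. Of the adhesion list, 13 of 24 tested genes were higher, 1 lower and 10 not called against the Kupffer gate, with a median log2 ratio of 1.78 beside 0.10 over all genes. In the MHC class II-low members 17 of 24 were higher and 1 lower, beside 22.6% and 17.2% over all genes.

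For Fc signalling, Fcer1g, the signalling chain of Fc receptors, stood at 2815, 2901 and 2789 CPM, and its partner chain Tyrobp at 2243, 2429 and 2147 CPM, under suffixes 1, 2 and 3. The list summed to 9548 CPM in members, 8057 CPM in the Kupffer gate and 4922 CPM in the dendritic gate. Of the list, set against the Kupffer gate, 3 of 18 tested genes were higher, 3 lower and 12 not called, beside 18.9% higher and 16.3% lower over all genes, so the list was near the background. Fcgr2b, the inhibitory Fc receptor, had 239.8 against 13.9 CPM there, and Sirpa, which receives the CD47 signal, 391 against 886 CPM. Fcgr4 itself was not called against the Kupffer gate, with a ratio of 1.60 (95% interval 1.35 to 1.90), and was higher than in the dendritic gate with a ratio of 22.8 (95% interval 15.2 to 35.8). In the MHC class II-low members Fcgr4 was called higher than in the Kupffer gate, with a log2 ratio of 1.14. Of the list, 5 of 18 genes were then higher and 4 lower, beside 22.6% and 17.2% over all genes.

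Genes of classical monocytes were not all low. Lyz2, lysozyme, stood at 8158, 7045 and 5997 CPM under suffixes 1, 2 and 3 and at 20888 CPM in the classical gate. Plac8 had 1309.6 CPM in members and 2359 CPM in the classical gate, S100a4 636 and 1777 CPM, and S100a6 548 and 2076 CPM. The classical identity list of 19 genes summed to 11294 CPM in members, 38020 CPM in the classical gate and 4375 CPM in the Kupffer gate. It holds Ly6c2 and Ccr2, by which the classical gate was chosen. Relative to the Kupffer gate 10 of 12 tested genes were higher, 1 lower and 1 not called, beside 18.9% higher and 16.3% lower over all genes.

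Among transcription factors, Spi1, the lineage factor PU.1, had 757 CPM in members, Klf2, a regulator of quiescence, 535 CPM and Klf4, needed for monocytes in mice, 414 CPM. Klf4 had 20.9 CPM and Nr4a1 65.0 CPM in the Kupffer gate, which gave ratios of 19.9 (95% interval 10.4 to 43.7) and 15.4 (95% interval 10.6 to 23.3). For Nr4a1 the Kupffer level was 19.9, 114 and 69.7 CPM under suffixes 1, 2 and 3, below that of the members in each. Relative to the Kupffer gate 8 of 33 tested genes were higher, 8 lower and 17 not called, beside 18.9% higher and 16.3% lower over all genes. Against the dendritic gate 13 of 31 tested genes were higher, 4 lower and 14 not called, beside 16.4% higher and 6.93% lower over all genes. For growth and survival, Csf1r, the receptor for M-CSF, had 796 against 1592 CPM in the Kupffer gate and was not called. Hes1, a Notch target, had 644 against 225 CPM, Bcl2, a survival factor, 158 against 39.4 CPM, and both were higher. The Bcl2a1 genes are near-identical copies between which reads may have been split.

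For uptake, the endocytosis lists gave small differences. The clathrin list summed to 1722 CPM in members, 2380.3 CPM in the Kupffer gate and 1689 CPM in the dendritic gate. Clta, a clathrin light chain, had 358 against 455 CPM in the Kupffer gate, Cltc, the heavy chain, 154 against 404 CPM, and Hip1, a clathrin adaptor, 252 against 116 CPM. Cltc was lower and Hip1 higher. The caveola genes summed to 6.91 CPM in members and 435 CPM in all other kept barcodes, and Cav1 had no UMI in members. The early and recycling endosome list summed to 1445 CPM in members against 2278 CPM in the Kupffer gate. There 0 of 15 tested genes were higher, 1 lower and 14 not called, beside 18.9% higher and 16.3% lower over all genes. The lower gene was Ehd1, a recycling ATPase, with 84.9 against 531 CPM. The phagocytosis and actin list summed to 12009 against 14302 CPM, led by the NADPH oxidase subunits Cybb (1435 CPM) and Cyba (1339 CPM).

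The lysosome list was where nonclassical monocytes fell furthest short of Kupffer cells among the endocytic lists. It summed to 10468, 11783 and 10896 CPM in members under suffixes 1, 2 and 3 and to 27596 CPM in the Kupffer gate, a ratio of 0.405 (95% interval 0.395 to 0.416). In this list 0 of 24 tested genes were higher, 13 lower and 11 not called, with a median log2 ratio of -1.18. Over all genes tested against that gate, 18.9% were higher and 16.3% lower. In the MHC class II-low members 0 of 24 were higher and 17 lower, beside 22.6% and 17.2% over all genes. Ctsb, a cysteine protease, had 1679.7 against 5965 CPM, Ctsc, which activates granule proteases, 365 against 1791 CPM, and Lamp1, a lysosomal membrane protein, 458 against 1148 CPM. Psap, the precursor of sphingolipid activators, had 2494 against 3304 CPM and was not called. The ratio of the list sum to the dendritic gate was 1.54 (95% interval 1.50 to 1.59), with Ctsb at 233 and Lamp1 at 116 CPM there.

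LXR target genes, which handle sterols and lipoproteins, summed in the members to a level between those of both gates. Apoe stood at 2654, 3194 and 3045 CPM under suffixes 1, 2 and 3, against 16555 CPM in the Kupffer gate and 26.5 CPM in the dendritic gate, and the barcode with most held 13.7% of its member UMIs. Without the barcode with most in each library it stood at 2425, 2371 and 2379.9 CPM. Nr1h3, the oxysterol receptor LXRα, had 62.2 against 517 CPM in the Kupffer gate, Abca1, a cholesterol exporter, 15.8 against 241 CPM, and Pltp, a phospholipid transfer protein, 94.7 against 506 CPM, and all were lower. Abcg1, another exporter, had 115 against 92.8 CPM and was not called. The LXR list summed to 3592 CPM in members, 23800 CPM in the Kupffer gate and 424 CPM in the dendritic gate. Apoe made up most of the sum in members and in the Kupffer gate. Lrp1, a receptor for lipoproteins and many ligands, had 303 CPM. The cholesterol synthesis list summed to 357 CPM in members, 259.8 CPM in the Kupffer gate and 818 CPM in the dendritic gate, with 1 of its 22 genes at 50 CPM or more in members.

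Complement was lower than in the Kupffer gate with and without the 24 barcodes, at list ratios of 0.120 (95% interval 0.115 to 0.126) and 0.0909, while the MHC class II result turned on them. C1qb, C1qa and C1qc had 384, 268 and 161 CPM in all members and 1.49, 1.49 and 1.49 CPM in the 110, against 4322, 5675 and 4512 CPM in the Kupffer gate. The MHC class II list summed to 16156 CPM in all members and to 1227 CPM in the 110. Its Kupffer level was 6853 CPM and its dendritic level 44571 CPM. The ratio to the Kupffer gate was 2.36 (95% interval 2.27 to 2.45) with the 24 and 0.179 without them. Cd74, the invariant chain, had 5987 CPM in all members and 958 CPM in the 110. MHC class I transcripts summed to 11304 CPM in members against 10841 CPM in the Kupffer gate. Of 12 tested genes 1 was called, H2-Q7, higher at 241 against 88.2 CPM, beside 18.9% higher and 16.3% lower over all genes.

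The RNA sensing list is broader than RNA sensors. Its 7 genes lower than in the Kupffer gate were Tlr2, Tlr4, Ddx58, Eif2ak2, Irf7, Rnaset2b and Unc93b1. Tlr13 was the one gene of the list that was higher. Tlr13, which recognises bacterial ribosomal RNA in mice, had 114 against 25.5 CPM in the Kupffer gate and 6.91 CPM in the dendritic gate. Tlr7, the receptor for single-stranded RNA, had 106 against 67.3 CPM and was not called against the Kupffer gate, and had 2.30 CPM in the dendritic gate, where it was higher in members with a ratio of 45.9 (95% interval 12.4 to 384). Unc93b1, which delivers these receptors to endosomes, had 273 against 629 CPM and was lower. The list as a whole summed to 1652 CPM in members, 2299 CPM in the Kupffer gate and 1304 CPM in the dendritic gate, and against the Kupffer gate 1 of 15 tested genes was higher, 7 lower and 7 not called, beside 18.9% higher and 16.3% lower over all genes. In the MHC class II-low members, 4 of 16 tested genes were higher and 7 lower, beside 22.6% and 17.2% over all genes.

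Interferon-stimulated genes were led by Ifitm3 (2279.7 CPM) and Ly6e (1846 CPM). Ifitm3, which blocks virus entry at endosomes, had 2279.7 against 842 CPM in the Kupffer gate, and Ifitm6 364 against 18.6 CPM. Against the Kupffer gate 4 of 26 tested genes were higher, 8 lower and 14 not called, beside 18.9% higher and 16.3% lower over all genes, with lower genes such as Bst2 (124 against 399 CPM) and Irf7 (120.4 against 339 CPM). In the MHC class II-low members 5 of 26 were higher and 10 lower, beside 22.6% and 17.2% over all genes. In vascular mediators, Tgfb1, transforming growth factor beta, had 296 CPM and Plaur, the urokinase receptor, 183 against 20.9 CPM, and F10 was higher than in all 3 comparison groups. The immediate early list, which tissue digestion can move, summed to 6823, 4194 and 5019 CPM under suffixes 1, 2 and 3, against 764, 3903 and 2211 CPM in the Kupffer gate of the same libraries. The ratios were 8.93, 1.07 and 2.27, so the size of this difference depended on the library. In the MHC class II-low members the list summed to 4809, 4689 and 5151 CPM under suffixes 1, 2 and 3. The higher level under suffix 1 among all members thus lay in its 3 MHC class II-high barcodes. The Kupffer gate set no limit on T or NK cell genes. Its NK marker list summed to 6.65, 1809 and 6.33 CPM under suffixes 1, 2 and 3, and the part of this in the ratios was not tested. Over all libraries the ratio was 2.33 (95% interval 2.17 to 2.50), and it was 1.53 without suffix 1 and 3.89 without suffix 2. The dendritic gate had 5245 CPM of the list, close to the 5101 CPM of the members. The part of digestion in the level of Nr4a1, itself such a gene, was not tested. The heat shock list, led by Hspa8 (1974 CPM), summed to 7250.5, 4269 and 8913 CPM in members, the Kupffer gate and the dendritic gate.

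Between libraries, several inflammatory genes spread further than Fcgr4, in some through single barcodes. Il1b, interleukin 1 beta, stood at 947, 209.9 and 825 CPM under suffixes 1, 2 and 3, with UMIs in 16, 26 and 21 members. Without the barcode with most in each library it stood at 786, 191 and 482 CPM, so suffix 2 was lowest both ways. Cxcl2, a neutrophil chemokine, stood at 192, 101 and 745 CPM and, without those barcodes, at 4.02, 57.9 and 266 CPM. Ccl5, named with the next genes after their values were seen, stood at 266, 50.3 and 632 CPM, and 1 barcode held 62.6% of its member UMIs, so it stood at 94.9, 34.2 and 48.5 CPM without the top barcodes. Isg15, an interferon-induced modifier, stood at 39.1, 87.5 and 249.6 CPM with 4, 8 and 7 barcodes holding a UMI, and at 16.5, 40.9 and 55.4 CPM without the top barcodes. Without the top barcode of each library, suffix 1 was highest for Ccl5 in place of suffix 3, suffix 1 was lowest for Cxcl2 in place of suffix 2, and the order for Isg15 was the same with smaller differences. The cell cycle genes Mki67 and Ube2c had 89.7% and 96.4% of their member UMIs in 1 barcode each, and had UMIs in 4 and 2 of 134 members. Whether the libraries differ by treatment cannot be told from these values.

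**Figure D5:**
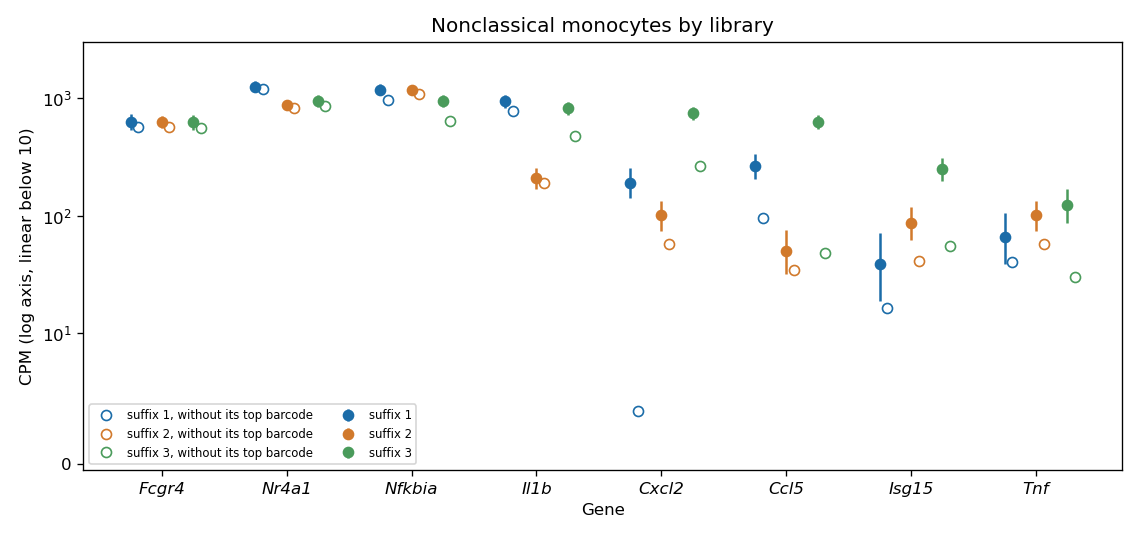
Level of 8 genes (CPM on a log axis that is linear below 10) in nonclassical monocytes under suffixes 1, 2 and 3, with exact Poisson 95% intervals (filled circles) and without the barcode with most UMIs of the gene (open circles). Fcgr4 lies at 626, 634 and 626 CPM, while Ccl5 under suffix 3 is at 632 CPM with its top barcode and 48.5 CPM without it.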

How the data were processed

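Droplet 3' libraries (10x Genomics) of sorted cells were sequenced, and raw UMI counts of 31053 genes were deposited by the authors as 1 matrix, made with Cell Ranger 3.1.0 per the file headers against mm10. The submitters' processing notes also name STAR, Seurat and edgeR without roles. UMI counts were summed per gate and gene and scaled to CPM (Python 3.11.15, scipy 1.17.1, scanpy 1.11.5), and TMM scaling used edgeR 4.0.16. The Kupffer gate took barcodes with 6 or more UMIs of Clec4f, Cd5l and Marco and at most 3 of Ace, Cd300e, Ear2 and Treml4. The dendritic gate took those with 4 or more of Cd209a, Clec10a and Mgl2 and at most 1 of the same 4 genes. Both had limits on other markers, but the Kupffer gate had none on T or NK cell genes. Groups under 30 barcodes were not compared. Mitochondrial, ribosomal protein and gate genes were left out of the genes tested, and genes at 0 in a group were set against 3 counts. Members and lists were chosen with earlier results of these data known. Named genes are the 12 with the largest lower bound and the 12 with the smallest upper bound of each ratio and the 2 to 4 highest or most different of each of 25 lists. Doublets were not removed. Some genes of these lists are not reported here. The 3 barcode sequences shared by libraries include no member. The call procedure was tested on simulated data. Gene positions come from GENCODE M21 on GRCm38 (601 of 601 genes found). Alternatives are listed in the closing section.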

Additional observations from a re-analysis of the deposited data

Results flagged for a closer look

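Outside the members, 52 kept barcodes had 4 or more gate UMIs and more than 2 UMIs of Clec4f, Cd5l and Marco. These barcodes were in neither the members nor the Kupffer gate, and were counted among all other kept barcodes. They had a median of 6919.5 UMIs and 947 gate UMIs per 1000000 non-mitochondrial UMIs. Ear2 stood at 332 CPM, Treml4 at 297 CPM and Cd300e at 234 CPM in them, while Ace stood at 2.49 CPM, with a UMI in 1 of 52. Fcgr4 had 609 CPM in them, and Spn, Nr4a1 and Cx3cr1 had 442, 999.7 and 340.5 CPM in the members, against 2.49, 57.4 and 32.4 CPM in these barcodes.

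Among the barcodes removed by the filters, 1 passed the gate with 5 gate UMIs. It had 2633 UMIs, 22.7% of them mitochondrial, and 1 UMI of Fcgr4.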

How the results depend on the processing

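The libraries have no known treatment and no replicates, and the classical monocyte gate held 13 barcodes, so the alternatives planned for it were not run. The gates share the 3 libraries, and each library's own direction entered the calls. No paired test was run, since the gates were set on the same counts and the libraries are not replicates of a group. Depth limits genes under 50 CPM in the Kupffer gate, where 3 counts are 6.96 CPM, against 2.96 CPM in the members. With a minimum of 10 CPM, 1069 genes were higher and 989 lower than in the Kupffer gate, 931 higher and 568 lower than in the dendritic gate, and 2203 lower than in all other kept barcodes. Without the MHC class II-high members, an alternative chosen after seeing the data, 365 genes were lower than in the dendritic gate. Leaving out 1 library at a time gave 77 to 98 members, the lowest without suffix 2, and the dendritic comparison without suffix 2 gave no value, with 26 barcodes left in that gate.

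Of 1000 ratios of list sums under the alternatives, 575 stayed within the counting interval of the reported ratio and 410 moved outside it. The other 15 changed direction, which was counted only where the reported interval lay beyond 1. Ratios whose reported interval held 1 could cross 1 without being counted. The cell cycle ratio to all other kept barcodes did so, at 1.05 as reported and 0.920 without the 24 members. Against the Kupffer gate, the interferon ratio was 0.981 and the MHC class I ratio 0.975 at a mitochondrial maximum of 10%, the MHC class I ratio ran from 0.977 without suffix 3 to 1.12 with 1 library left out, and the MHC class II ratio was 1.000 as a mean over barcodes and 0.179 without the 24 members. Against the dendritic gate, the chemokine ratio was 0.896 at a gate of 8 UMIs and ran from 0.948 without suffix 3 to 1.24 with 1 library left out. Against all other kept barcodes, the complement ratio was 0.835 (without suffix 2) to 1.31 with 1 library left out, 0.794 as a mean over barcodes and 0.847 without the 24 members. The clathrin ratio there was 1.04 with TMM scaling, the LXR ratio 0.942 (without suffix 2) to 1.42 with 1 library left out and 0.972 as a mean over barcodes, and the MHC class II ratio 0.708 at a gate of 8 UMIs and 0.112 without the 24 members. The causes of these changes were not tested.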
